A study of Mus musculus with 13 samples.

Results

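The mouse HoxD cluster holds 9 genes, Hoxd1, Hoxd3, Hoxd4, Hoxd8, Hoxd9, Hoxd10, Hoxd11, Hoxd12 and Hoxd13, and all 9 were taken by gene identifier from the 41388 genes counted in each library. They lie on the + strand of chromosome 2 within 96833 bases (chr2:74668310-74765142 on GRCm38), with Hoxd13 at the 5′ end and Hoxd1 at the 3′ end. Of these, 5 had enough counts for a test (Hoxd1, Hoxd8, Hoxd9, Hoxd10 and Hoxd11) and 4 did not (Hoxd3, Hoxd4, Hoxd12 and Hoxd13). Expression was measured by bulk RNA sequencing of Ret-EGFP cells that a fluorescence sort took from dissociated dorsal root ganglia (DRG). These are the ganglia that hold the cell bodies of sensory neurons beside the spinal cord. The 13 libraries came from 3 L6S1 and 3 L345 pools of females, and 4 L6S1 and 3 L345 pools of males. L6S1 stands for ganglia of the L6 and S1 segments, and L345 for those of the L3, L4 and L5 segments.

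All mice were untreated, 3 months old and of the C57BL/6 strain, and all 13 libraries came from mice with the reporter. The sample labels give the genotype as Tg(Ret-EGFP)SJ, whereas the series text describes heterozygotes in which EGFP was placed at the Ret locus. Ret encodes the receptor tyrosine kinase for ligands of the GDNF family, so sorted cells of this kind are a selection of DRG cells and not the whole ganglion. Each library pooled 2 to 9 mice, 61 in all if no mouse gave both levels, and nothing in the labels states whether it did. The spread between libraries is therefore one between pools, and it does not give the spread between single mice.

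Hox genes encode homeodomain transcription factors that set identity along the head-to-tail axis. Within a cluster they are ordered as they are expressed, with genes nearer the 5′ end used later in the embryo and more caudally, a property called collinearity. In the neural tube and its ganglia, caudal Hox genes are known for marking lumbar and sacral levels. Paralogs are genes of the same number in the HoxA, HoxB, HoxC and HoxD clusters, which arose by duplication of an ancestral cluster.

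The bases just before the start of 4 neighbouring genes are shown because the difference between levels began between Hoxd8 and Hoxd9, and was close in size in Hoxd10 and Hoxd11. They are from RefSeq on GRCm38.p6, + strand, 5′ to 3′, and end before the first exon base. Capitals mark a match to 1 of 4 motifs searched on both strands. TTTATG is preferred by caudal Hox proteins. TGATNNAT is bound by Hox proteins together with a Pbx partner. CACGTG is an E-box motif and matches its own reverse complement. The last motif was TATAAA, the TATA box.
Hoxd8, chr2:74704365-74704614: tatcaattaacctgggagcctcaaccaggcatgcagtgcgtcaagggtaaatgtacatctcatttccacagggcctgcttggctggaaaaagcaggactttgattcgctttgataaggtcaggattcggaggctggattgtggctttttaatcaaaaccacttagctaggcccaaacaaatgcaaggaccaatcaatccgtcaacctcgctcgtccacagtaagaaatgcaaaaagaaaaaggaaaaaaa
Hoxd9, chr2:74697513-74697726: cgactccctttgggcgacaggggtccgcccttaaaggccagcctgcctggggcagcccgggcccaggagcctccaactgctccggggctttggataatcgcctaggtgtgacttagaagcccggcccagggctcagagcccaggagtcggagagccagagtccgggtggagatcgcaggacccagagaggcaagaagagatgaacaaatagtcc
Hoxd10, chr2:74691641-74691890: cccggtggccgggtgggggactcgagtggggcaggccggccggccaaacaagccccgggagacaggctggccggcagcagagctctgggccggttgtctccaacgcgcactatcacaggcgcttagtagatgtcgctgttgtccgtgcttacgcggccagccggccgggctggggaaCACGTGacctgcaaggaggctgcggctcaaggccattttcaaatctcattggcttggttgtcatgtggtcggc
Hoxd11, chr2:74679308-74679556: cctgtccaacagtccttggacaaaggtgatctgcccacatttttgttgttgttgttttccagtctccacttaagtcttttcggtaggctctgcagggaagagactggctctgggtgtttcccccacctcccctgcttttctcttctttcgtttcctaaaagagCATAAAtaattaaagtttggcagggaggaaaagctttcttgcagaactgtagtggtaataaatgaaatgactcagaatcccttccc
CACGTG stood once before Hoxd10, and TTTATG once in the window shown for Hoxd11, on the - strand, where it reads CATAAA on the strand shown. None of the 4 motifs was found before Hoxd8 or Hoxd9, which says only that these letters are not in these windows. Over all 32851 RefSeq promoter windows of 250 bases, 6.02% held CACGTG, 10.8% TTTATG, 7.68% TGATNNAT and 12.4% TATAAA. The windows shown for Hoxd9 and Hoxd11 are shorter than these, at 214 and 249 bases. The GC content was 44.4% before Hoxd8, 63.6% before Hoxd9, 65.6% before Hoxd10 and 44.6% before Hoxd11, against a median of 52.4% over those windows. RefSeq gives Hoxd11 another start within its gene model, whose window (chr2:74682073-74682322) is not printed. That window had 60.4% GC and held CACGTG once and TGATNNAT once.

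Total counts ran from 13030096 to 27011995 per library, and levels are given as CPM, counts relative to the scaled library total, unless stated otherwise. Markers of sensory neurons summed to 9541 to 16511 CPM in L6S1 libraries and 10492 to 12263 CPM in L345 libraries, with all 9 markers counted in them. Ret averaged 182 ± 0.865 CPM in female L6S1 and 203 ± 3.62 CPM in female L345 (SD, n = 3 each), and 165 ± 58.5 CPM in male L6S1 (n = 4) and 201 ± 5.77 CPM in male L345 (n = 3). The male L6S1 libraries D and E stood apart from the others, with a scaling factor of 0.925 in D and 0.796 in E, against 1.01 to 1.05 elsewhere. Ret was lowest in E, at 87.2 CPM. The fold changes of Hoxd9, Hoxd10 and Hoxd11 and the counts of called members are given with and without D and E. The shares within HoxD, each ratio between genes and the correlations between genes include both libraries. In bulk samples of this kind, fewer expressing cells and less RNA per cell cannot be told apart.

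Hoxd9, Hoxd10 and Hoxd11, the genes of the caudal part of the cluster that were well counted, were higher at L6S1 than at L345, whereas Hoxd8 and Hoxd1 did not pass the test. Over both sexes, 3 of the 5 tested members rose and 0 fell, where 0.428% of the 15406 tested genes were higher and 0.0195% lower at an adjusted p under 0.05. All tests across genes are edgeR quasi-likelihood F-tests with Benjamini-Hochberg adjustment over the 15406 genes. The fold change was 3.73 for Hoxd9, 7.65 for Hoxd10 and 8.17 for Hoxd11. Every L6S1 library lay above every L345 library for these 3 genes, as it did for 0.539% of tested genes. All 20 alternatives of the processing called these 3 members over both sexes, among them the fits without each library in turn and the one without D and E, which called 0.476% of all genes.

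**Figure D1:**
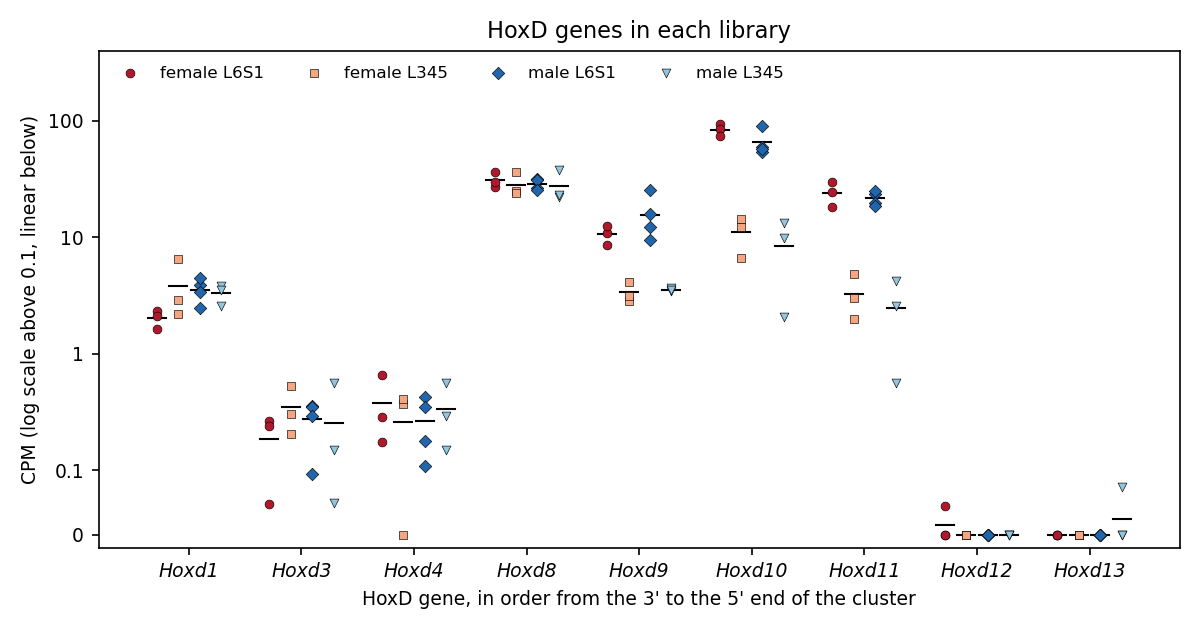
CPM of the 9 HoxD genes (y axis, log scale above 0.1 and linear below) in each library, ordered along the cluster (x axis). Points are libraries of the 4 groups and black bars are group means. Hoxd9, Hoxd10 and Hoxd11 separate L6S1 from L345, Hoxd8 and Hoxd1 overlap, and Hoxd12 and Hoxd13 each have 1 count in all libraries together.

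Hoxd11 (ENSMUSG00000042499, chr2:74679557-74687016) acts in the mouse in patterning of the sacral spine, limb and kidney. Hoxd11 stood at 29.8, 24.5 and 18.3 CPM in female L6S1 libraries A, B and C, against 4.83, 1.98 and 3.00 CPM in female L345 libraries A, B and C. It stood at 23.6, 24.9, 19.8 and 18.7 CPM in male L6S1 libraries A, D, E and F, against 4.24, 0.559 and 2.58 CPM in male L345 libraries A, B and C. The lowest L6S1 library was 3.80 times the highest L345 library, so the levels did not overlap. The spread was narrow at L6S1, where the highest library was 1.62 times the lowest, and wide at L345, where it was 8.64 times the lowest. The log2 fold change of L6S1 over L345 was 3.03 (SE of 0.36 and adjusted p = 5.50e-04), and without D and E it was 3.01.

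Hoxd10 (ENSMUSG00000050368, chr2:74691924-74695105) is known in the mouse for its part in the identity of lumbar motor neurons. Hoxd10 stood at 93.5, 84.5 and 74.1 CPM in female L6S1 libraries A, B and C, against 14.5, 6.69 and 12.3 CPM in female L345 libraries A, B and C. It stood at 90.2, 53.8, 59.9 and 57.2 CPM in male L6S1 libraries A, D, E and F, against 13.3, 2.05 and 9.93 CPM in male L345 libraries A, B and C. The lowest L6S1 library was 3.71 times the highest L345 library. At L345 the highest library was 7.07 times the lowest, and male library B was lowest for Hoxd10 as for Hoxd11. The log2 fold change was 2.94 (SE of 0.35 and adjusted p = 5.50e-04), and without D and E it was 3.02.

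Hoxd9 (ENSMUSG00000043342, chr2:74697727-74700208) belongs to a paralog group known in the mouse for the patterning of ribs and vertebrae. Hoxd9 stood at 8.64, 10.9 and 12.4 CPM in female L6S1 libraries A, B and C, against 2.86, 3.14 and 4.15 CPM in female L345 libraries A, B and C. It stood at 9.57, 12.2, 25.3 and 15.7 CPM in male L6S1 libraries A, D, E and F, against 3.64, 3.44 and 3.50 CPM in male L345 libraries A, B and C. The lowest L6S1 library was 2.08 times the highest L345 library. In contrast to Hoxd10 and Hoxd11, the spread was wider at L6S1, where the highest library was 2.92 times the lowest, than at L345, where it was 1.45 times. The highest library was male L6S1 E, which also had the lowest Ret and the highest sum of 6 fibroblast markers, at 587 CPM. The log2 fold change was 1.90 (SE of 0.24 and adjusted p = 9.87e-04), and without D and E it was 1.74 (adjusted p = 0.00124, within 1.62e-11 to 0.00827 over the 20 alternatives).

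Hoxd8 (ENSMUSG00000027102, chr2:74704615-74707933), a member of the central paralog groups, was well counted in every library. It stood at 36.4, 27.1 and 29.9 CPM in female L6S1 libraries A, B and C, against 36.1, 24.9 and 24.1 CPM in female L345 libraries A, B and C. It stood at 31.4, 26.3, 31.1 and 25.6 CPM in male L6S1 libraries A, D, E and F, against 38.2, 22.3 and 23.0 CPM in male L345 libraries A, B and C. The levels overlapped throughout, and the A libraries were the highest of each of the 4 groups. The log2 fold change of 0.09 (SE of 0.19 and adjusted p = 0.878) had a 95% interval of -0.31 to 0.49, which leaves out a change of the size seen in Hoxd9.

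Hoxd1 (ENSMUSG00000042448, chr2:74762980-74765142), at the other end of the cluster, is known in the mouse for its part in the wiring of nociceptive sensory neurons. It stood at 2.34, 1.62 and 2.11 CPM in female L6S1 libraries A, B and C, against 6.47, 2.18 and 2.92 CPM in female L345 libraries A, B and C. It stood at 2.45, 3.86, 4.50 and 3.39 CPM in male L6S1 libraries A, D, E and F, against 3.79, 2.56 and 3.55 CPM in male L345 libraries A, B and C. The levels overlapped, and female L345 A was the highest of all. The log2 fold change was -0.41 (SE of 0.27 and adjusted p = 0.645), with a 95% interval of -0.98 to 0.17.

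**Figure D2:**
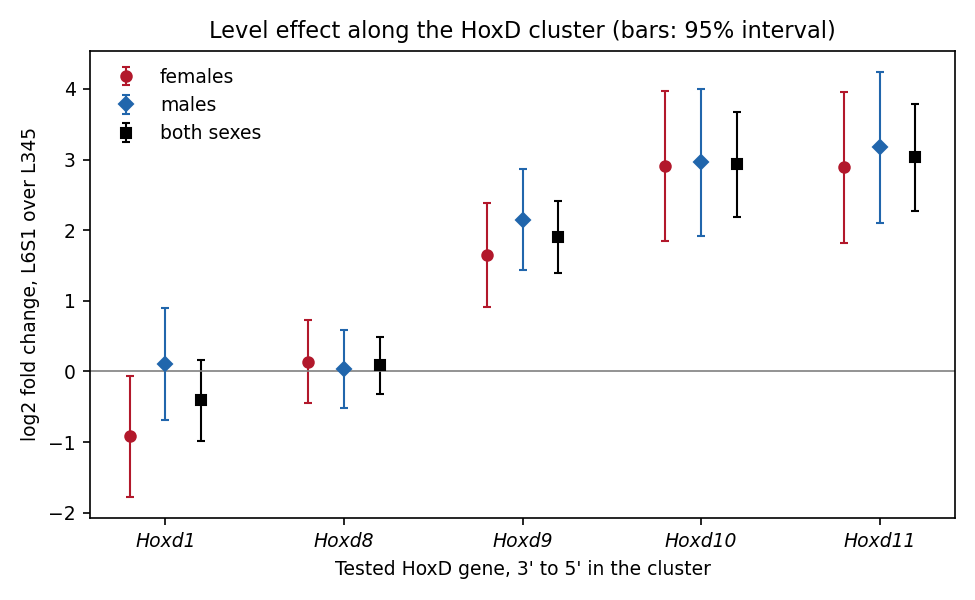
Log2 fold change of L6S1 over L345 (y axis) for the 5 tested HoxD genes in order along the cluster (x axis), in females, males and both sexes. Points are edgeR estimates and bars their 95% intervals. The effect is near 0 at Hoxd8 and about equal at Hoxd10 and Hoxd11, at 2.94 and 3.03 over both sexes.

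The 4 remaining members lay at or near the detection floor, where 3 counts are 0.111 to 0.230 CPM before scaling. Hoxd3 (ENSMUSG00000079277, chr2:74711927-74748442) and Hoxd4 (ENSMUSG00000101174, chr2:74711929-74729160) act in the neck region of the embryonic axis, rostral to the levels sampled here. Hoxd3 had 6, 4 and 1 counts in female L6S1 A, B and C, against 10, 6 and 5 in female L345 A, B and C, and 8, 2, 6 and 8 counts in male L6S1 A, D, E and F, against 2, 12 and 1 in male L345 A, B and C. Hoxd4 had 4, 11 and 6 counts in female L6S1 A, B and C, against 7, 8 and 0 in female L345 A, B and C, and 4, 9, 6 and 3 counts in male L6S1 A, D, E and F, against 2, 12 and 6 in male L345 A, B and C. Both overlapped between levels, with an exact permutation p of 0.481 for Hoxd3 and 0.840 for Hoxd4 (two-sided, levels permuted within sex, 700 arrangements, unadjusted). Of the exon bases, 62.3% of Hoxd3 and 52.3% of Hoxd4 are shared with another gene on the same strand, so these counts are uncertain.

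Hoxd12 (ENSMUSG00000001823, chr2:74675013-74677705) and Hoxd13 (ENSMUSG00000001819, chr2:74668310-74671599), the most 5′ members, act in the mouse in the digits and, for Hoxd13, the genital and urinary outlets. Hoxd12 had 1 count in all 13 libraries, in female L6S1 A, and Hoxd13 had 1 count, in male L345 A. Neither was detectable beyond the floor at this depth, so no difference between levels could be seen. The exact permutation p was 1 for Hoxd12 and 0.429 for Hoxd13. With 1 count in 1 library, each p depends only on the group that holds the count, so it cannot decide on a difference. The high caudal end of the measured cluster was thus Hoxd11, with a drop to the floor at the next gene.

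The make-up of HoxD expression at the 2 levels is described as shares, without a test. Per kilobase of gene length, Hoxd10 gave 61.9 ± 6.59% of HoxD reads at L6S1 (SD, n = 7) and 25.6 ± 8.96% at L345 (n = 6). Hoxd8 gave 16.8 ± 1.28% at L6S1 and 52.0 ± 7.40% at L345. Hoxd1 gave 2.51 ± 1.13% at L6S1 and 9.51 ± 2.17% at L345, and Hoxd11 gave 8.42 ± 1.42% at L6S1 and 3.16 ± 1.12% at L345. Hoxd9 stayed close, at 10.1 ± 4.69% at L6S1 and 8.69 ± 2.71% at L345. These shares sum to a fixed total, so those of Hoxd8 and Hoxd1 are lower at L6S1 without a called change in their CPM. The CPM of the 9 members together was 143 ± 18.4 at L6S1 and 48.4 ± 13.5 at L345.

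**Figure D3:**
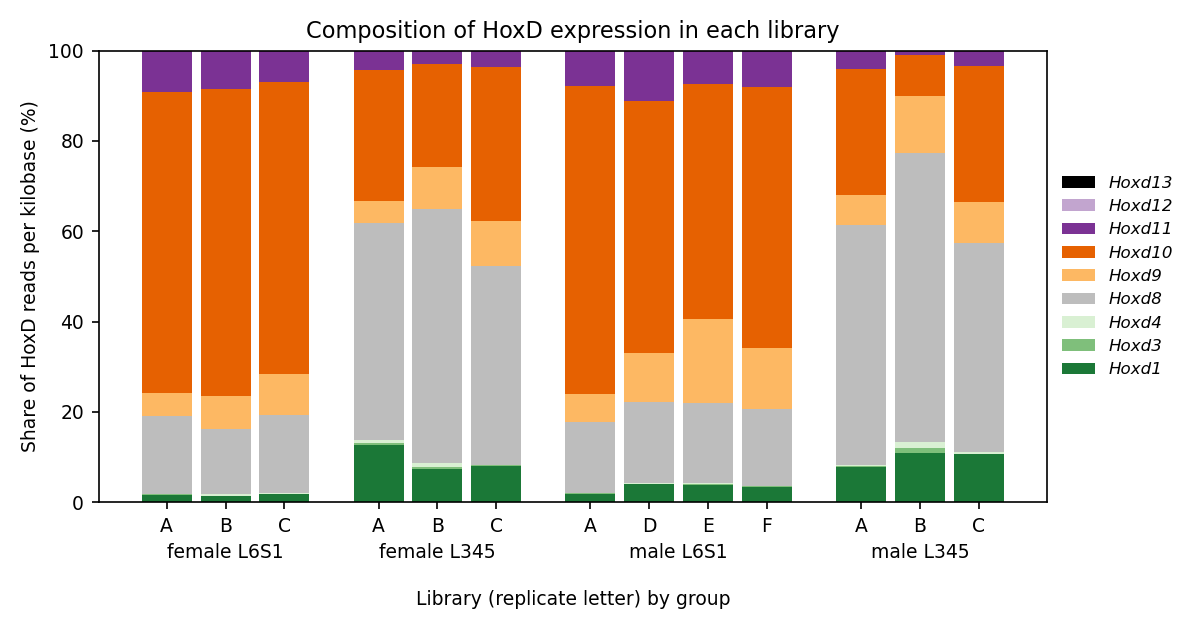
Share of HoxD reads per kilobase of gene length (y axis, percent) by member in each library (x axis, replicate letters under their group). Hoxd10 is the largest share in all 7 L6S1 libraries, at 52.0% to 68.4%, and Hoxd8 in all 6 L345 libraries, at 44.2% to 64.0%.

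In CPM per kilobase, the order at L6S1 was Hoxd10, Hoxd8, Hoxd9, Hoxd11, Hoxd1, Hoxd4, Hoxd3, Hoxd12 and Hoxd13. Hoxd10 averaged 40.4 ± 9.10, Hoxd8 10.8 ± 1.37, Hoxd9 6.33 ± 2.65, Hoxd11 5.41 ± 0.984 and Hoxd1 1.56 ± 0.559 CPM per kilobase at L6S1 (SD, n = 7). The ranges of Hoxd8 and Hoxd9 overlapped, as did those of Hoxd9 and Hoxd11, and each neighbouring pair from Hoxd4 down. At L345 the order began with Hoxd8 at 10.2 ± 2.58, Hoxd10 at 5.39 ± 2.59, Hoxd1 at 1.92 ± 0.827, Hoxd9 at 1.62 ± 0.206 and Hoxd11 at 0.680 ± 0.367 CPM per kilobase (n = 6). There the ranges of Hoxd10 and Hoxd1 overlapped, as did those of Hoxd1 and Hoxd9, of Hoxd11 and Hoxd4, and of each pair further down. The order of levels thus did not follow the order of the genes along the cluster at either spinal level.

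A difference between genes in their level effect was tested with log2 ratios of counts per library, by two-sided exact permutation of levels within sex and adjustment over 11 ratios. The ratio of Hoxd9 to its neighbour Hoxd8 was higher by 1.72 at L6S1 (adjusted p = 0.00314, 7 of 7 libraries above all L345 libraries). The ratio of Hoxd10 to Hoxd9 was higher by 1.29 (adjusted p = 0.0196), with 4 of 7 libraries above. The ratio of Hoxd11 to Hoxd10 differed by 0.09 (adjusted p = 0.533), so no further step was found between these neighbours. The smallest p that these permutations can give before adjustment is 0.00143.

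The same members were then set against their paralogs in the other clusters. Hoxd9 differed from all 3 tested paralogs, with ratios higher at L6S1 by 2.08 against Hoxa9 and 2.53 against Hoxb9 (adjusted p = 0.00314 each), and by 2.41 against Hoxc9 (adjusted p = 0.00524). Hoxd10 rose by 3.28 relative to Hoxa10 and by 2.18 relative to Hoxc10 (adjusted p = 0.00314 each). Hoxd8 was higher by 1.22 relative to Hoxc8 (adjusted p = 0.0227), which itself had a log2 fold change of -0.97 (SE of 0.40 and adjusted p = 0.554 by edgeR). Hoxd11 went the other way relative to Hoxc11, with a ratio lower at L6S1 (difference -1.46, adjusted p = 0.0135). Hoxc11 averaged 2.81 ± 0.798 CPM at L6S1 (n = 7) and 0.0808 ± 0.0830 CPM at L345 (n = 6), so its ratios at L345 rest on counts at the floor.

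**Figure D4:**
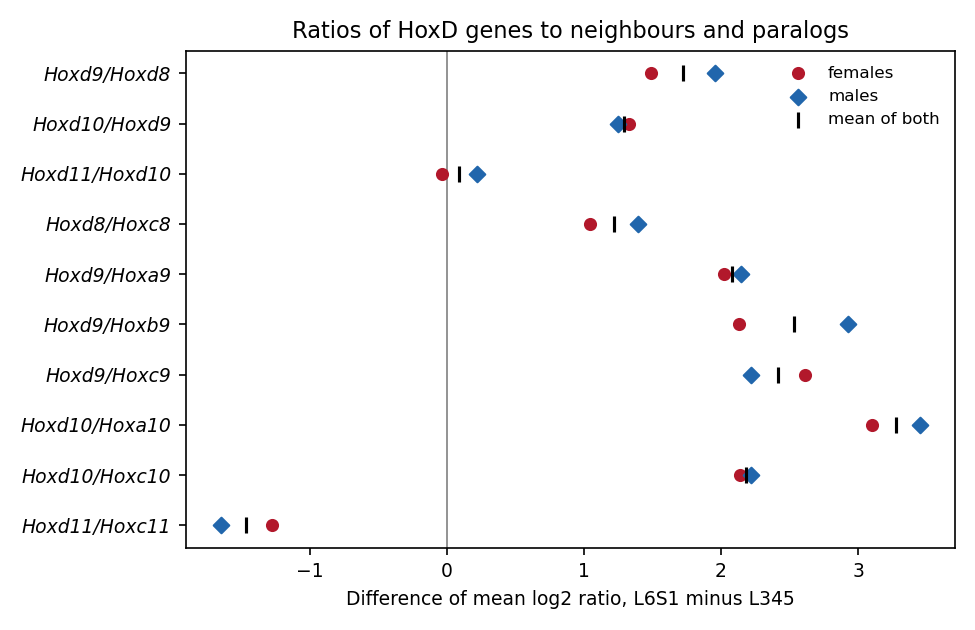
Difference of the mean log2 ratio of a HoxD gene to a neighbour or a paralog, L6S1 minus L345 (x axis), for each ratio given in the text (y axis), in females, in males and as the mean of both sexes. Ratios of Hoxd9 and Hoxd10 to their paralogs lie right of 0 in both sexes, Hoxd11 to Hoxd10 lies near 0, and Hoxd11 to Hoxc11 lies left of 0.

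Among the 21 tested Hox genes of the other clusters, 2 rose and 2 fell over both sexes, with a median log2 fold change of -0.51, beside 0.02 over all genes tested and 0.448% of them called by edgeR in either direction. DESeq2 called 7 of these Hox genes, limma voom 4 and edgeR without the filter 6. At an unadjusted p under 0.05, 2 were higher and 8 lower. The shares of all genes in those fits and at that threshold are not reported here, so these counts cannot be set beside them. Hoxc11 rose by 5.57 (SE of 0.45 and adjusted p = 2.23e-05) and Hoxc10 by 0.94 (SE of 0.18 and adjusted p = 0.0234). Hoxb6 fell by 1.76 (SE of 0.36 and adjusted p = 0.0381) and Hoxb5 fell by 1.05 (SE of 0.20 and adjusted p = 0.0283). Both that rose are HoxC genes of the caudal groups, and both that fell are HoxB genes of more rostral groups.

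The effect in each sex was taken from the fit of all libraries, in which the 4 groups share an estimate of the spread. A left-out male library can thus change a call in females. In females, the members' fold changes were of like size but did not pass the adjusted threshold. The female log2 fold change was 1.65 for Hoxd9 (SE of 0.35 and adjusted p = 0.160), 2.91 for Hoxd10 (SE of 0.50 and adjusted p = 0.0567) and 2.89 for Hoxd11 (SE of 0.50 and adjusted p = 0.0567). Thus 0 of 5 members passed by edgeR, where 0.0195% of all genes did, and 4 had an unadjusted p under 0.05. The share of all genes at that unadjusted threshold is not reported here, so the count of 4 cannot be set beside it. DESeq2 called 3 members and 0.23% of all genes, and limma voom 2 members and 0.0714% of all genes. The fourth was Hoxd1, with a log2 fold change of -0.92 (adjusted p = 1, unadjusted p = 0.0359 by edgeR). Its rank by p in females was 286 among the 15406 genes tested. With the replicate letter as a block, Hoxd9 (adjusted p = 0.00961), Hoxd10 and Hoxd11 (adjusted p = 0.00271 each) all rose in females, where 0.338% of all genes passed. With females fitted alone 2 members and 0.0967% of all genes passed, and without D and E 1 member (Hoxd9) and 0.148% of all genes. Over the alternatives the female adjusted p of Hoxd10 ran from 4.95e-06 to 0.526. Hoxd9 passed without male L6S1 E, where 0.0722% of all genes did, and Hoxd11 without male L345 A, where 0.0253% did. Hoxd10 and Hoxd11 passed without male L345 B, where 0.0317% of all genes did.

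In males, by the same fit of all libraries, 3 of 5 members rose, where 0.221% of all genes did. The male log2 fold change was 2.15 for Hoxd9 (SE of 0.34 and adjusted p = 0.0147), 2.96 for Hoxd10 (SE of 0.49 and adjusted p = 0.0205) and 3.17 for Hoxd11 (SE of 0.50 and adjusted p = 0.0153). The call ended for all 3 without male L345 C (adjusted p = 0.144 each, 0.0253% of all genes called) and in males fitted alone, where 0.0135% of all genes passed. With the replicate letter as a block, which leaves only the A libraries to compare in males, the adjusted p was 0.154 for Hoxd9, 0.0714 for Hoxd10 and 0.0791 for Hoxd11, and 0.0% of all genes passed. Over the alternatives the male adjusted p of Hoxd10 ran from 6.21e-08 to 0.144. Without D and E, Hoxd9 was called in males (adjusted p = 0.0341) and the other two were not, where 0.122% of all genes passed.

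The level effect was not shown to differ between the sexes. Of the 5 members 0 passed the test of that difference by edgeR, DESeq2 and limma voom, 0 had an unadjusted p under 0.05, and 0.0% of all genes passed by edgeR. The male effect minus the female effect was 0.50 for Hoxd9, with a 95% interval of -0.49 to 1.49, 0.05 for Hoxd10 (-1.31 to 1.41) and 0.28 for Hoxd11 (-1.12 to 1.68). The largest was that of Hoxd1, at 1.03 (-0.13 to 2.19, adjusted p = 0.411). In males against females over both levels, 0 of 5 members passed by edgeR, DESeq2 and limma voom, and 0 had an unadjusted p under 0.05, where 0.0779% of all genes passed by edgeR. The shares of all genes by DESeq2, by limma voom and at an unadjusted p under 0.05 are not reported here for either test. The processing notes differ between male and female libraries, so sex and processing cannot be told apart. As a ratio of the male to the female fold change, the intervals run from 0.403 to 2.66 for Hoxd10 and from 0.461 to 3.21 for Hoxd11.

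Within L345, Hoxd10 and Hoxd11 varied together from library to library. Over the 6 L345 libraries their log2 CPM had a Pearson r of 0.987 (exact permutation p = 0.00139, adjusted p = 0.00833 over 6 relations) and a Spearman rho of 1 (exact permutation p = 0.00278, adjusted p = 0.0167). Without the 2 libraries farthest from the median of Hoxd10, r was 0.932 over 4 libraries. Over the 7 L6S1 libraries r was 0.520 (exact permutation p = 0.221, adjusted p = 0.442) and rho 0.321 (exact permutation p = 0.498, adjusted p = 0.746), where both genes span a narrower range. Hoxd10 and Hoxd9 had an r of -0.712 over the L6S1 libraries (exact permutation p = 0.0583, adjusted p = 0.175) and 0.0448 over the L345 libraries (exact permutation p = 0.918). Each sex holds 3 or 4 libraries of a level, too few for a value within the sex. The 2 genes of a pair share their library, its depth and its scaling.

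**Figure D5:**
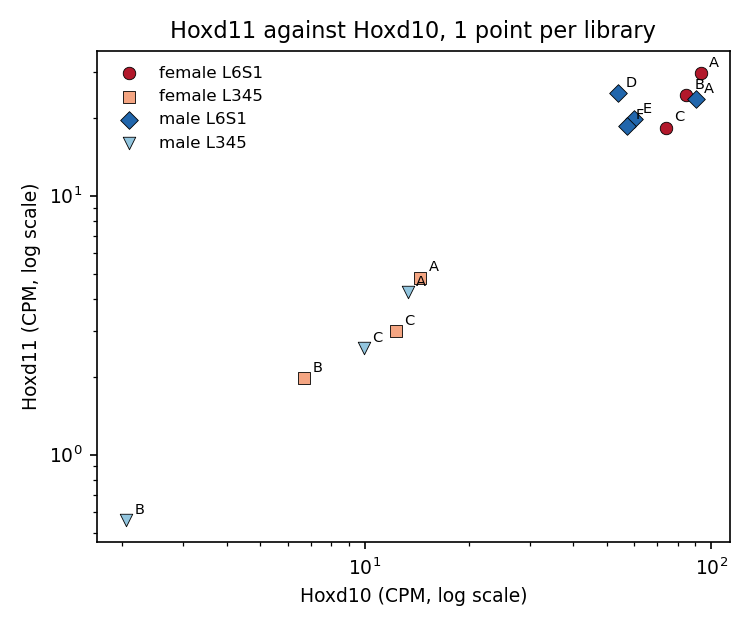
Hoxd11 (y axis) against Hoxd10 (x axis) in CPM on log scales, with 1 point per library, its group as symbol and its replicate letter beside it. The 6 L345 points line up from male B, at 2.05 and 0.559 CPM, to female A, at 14.5 and 4.83 CPM, and the 7 L6S1 points form a group apart.

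The genes outside the cluster with the most similar pattern were taken by Pearson r of log2 CPM over all 13 libraries, as a description of libraries that fall into separate levels. For Hoxd11 these were Hoxc10 (r = 0.941), Hoxc11 (0.923) and Ntm (0.919), and for Hoxd10 they were Hotair (0.934), a noncoding RNA of the HoxC cluster, Hoxc11 (0.924) and Hoxc10 (0.901). For Hoxd9 they were Upp1 (0.970), Mrap2 (0.969) and Adm (0.953), which were not among the 3 listed for Hoxd10 or Hoxd11. These genes were themselves called higher at L6S1, with log2 fold changes of 1.84, 2.15 and 3.01. Their r with Hoxd10 and Hoxd11 is not reported here, so the lists do not show a different pattern. For Hoxd8 they were Pla2g7 (0.946), Rnf146 (0.937) and Mki67 (0.909), and for Hoxd1 Timm29 (0.914) and Cdkn1c (0.894), none of which was called between levels.

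No called difference between levels lay in the other genes around the cluster. Of 44 other annotated genes within 1 Mb of the cluster 13 were tested, and 0 passed by edgeR, DESeq2 and limma voom. At an unadjusted p under 0.05 there were 0, and the median log2 fold change was -0.04. By edgeR 0.448% of all tested genes were called in either direction, so 0 of 13 does not set these genes apart. The shares of all genes by DESeq2, by limma voom and at that unadjusted threshold are not reported here. Hoxd3os1, a noncoding RNA on the strand opposite to Hoxd3, had a log2 fold change of 0.29 (SE of 0.27 and adjusted p = 0.714), and Haglr, another noncoding RNA of the cluster, had one of 0.16 (SE of 0.23 and adjusted p = 0.813). Evx2, the homeobox gene next to Hoxd13, had 0 counts in all libraries. Gm28309, a gene model that shares 10.8% of the exon bases of Hoxd11 and 5.73% of those of Hoxd10, had 0 counts as well. Hoxd8, Hoxd9 and Hoxd1 share no exon base with another gene.

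Partners and regulators of Hox genes were described in the same way. Of 9 TALE homeodomain genes (the Pbx, Meis and Pknox families, cofactors that bind DNA with Hox proteins) 0 passed by edgeR, DESeq2 and limma voom, and 1 had an unadjusted p under 0.05. Of 15 tested axial patterning genes 0 passed by edgeR and limma voom, 1 by DESeq2, and 2 had an unadjusted p under 0.05. Of 29 chromatin regulators, which include Polycomb and Trithorax proteins that hold Hox genes silent or active, 0 passed by any of the 3 tools and 3 had an unadjusted p under 0.05. Their median log2 fold changes were -0.10, -0.02 and -0.16, beside 0.02 over all genes tested. The shares of all genes by DESeq2 and at an unadjusted p under 0.05 are not reported here, so those counts cannot be set beside them.

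Markers of other cells were counted at levels that partly moved with the groups, and in female L6S1 C all sympathetic neuron markers were at 0 counts. The 6 fibroblast markers, of which none was at 0 counts in any library, summed to 142 to 587 CPM at L6S1 and 79.4 to 230 CPM at L345. Nearly all of this sum was Dcn, at 269 ± 167 CPM at L6S1 (SD, n = 7) and 118 ± 49.7 CPM at L345 (n = 6), with a log2 fold change of 1.19 (SE of 0.37 and adjusted p = 0.336). The other 5 fibroblast markers had log2 fold changes of -0.53 (Col1a2) to -0.02 (Pdgfra), and the median of the list was -0.08. The 8 markers of satellite glia and Schwann cells summed to 2380 to 4613 CPM at L6S1 and 2860 to 4037 CPM at L345, and the 7 immune markers to 1.08 to 2.92 CPM at L6S1 and 1.02 to 3.27 CPM at L345. Spinal motor neuron markers summed to 1.74 to 12.4 CPM at L6S1 and 2.55 to 6.69 CPM at L345, with 2 or 3 of 4 at 0 counts in each library, and sympathetic neuron markers to at most 0.485 CPM at L6S1 and 0.796 CPM at L345. Of the 34 tested markers of all lists 0 passed by edgeR and limma voom, 2 passed by DESeq2, and 7 had an unadjusted p under 0.05. The shares of all genes by DESeq2 and at that unadjusted threshold are not reported here. The part of other cells in the HoxD difference was not tested.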

How the data were processed

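RNA of sorted Ret-EGFP DRG cells was sequenced in 13 pooled libraries. The submitters' processing notes name Subread and featureCounts 1.4.5 with GRCm38.p2 for all libraries, and STAR 2.0.4b, Salmon and mm10 as well for the female ones. The handling of reads on shared exons and of strand is not given in the sources used here. As for units, the authors' deposited counts are whole numbers per gene, without normalization. The deposited CPM and RPKM were recomputed from the counts, with a largest relative difference of 5.10e-15 for CPM and 5.21e-14 for RPKM, and served only as that check.

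Counts were filtered with filterByExpr (15406 of 41388 genes), scaled with TMM and tested with the robust quasi-likelihood test of edgeR 4.0.16 in R 4.3.3, with 1 mean per group and Benjamini-Hochberg adjustment. DESeq2 1.42.0, limma 3.58.1 (voom), other scalings, no filter, a replicate block, each sex alone and left-out libraries were alternatives. The fit was tested on simulated data. The SE was taken from the log2 fold change and the square root of its F statistic. Ratios added 1 count to each gene and were tested by exact permutation in SciPy 1.17.1. The rule for named genes took all 9 members, at most 4 called genes per list, Ret and the 3 genes most like each tested member. Some results under this rule and some ratios are not reported here. The members, lists and tests were chosen with earlier results of these data known. Haglr, Hoxd3os1, Evx2, Gm28309 and the paralogs were named after their values were seen. Residuals of libraries with the same letter correlated at 0.520, 0.203 and 0.488 in females A, B and C and 0.101 in males A. Correlations between libraries with different letters were not computed, so these values do not show that the letters pair the libraries. The letter was used only in the replicate block, and the main fit and the permutations left it out. Floors of 3 counts cover counting error only, since the reads carry no molecular identifiers and amplified copies are not separate molecules. Positions are from GENCODE M21 on GRCm38.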

Additional observations from a re-analysis of the deposited data

Results flagged for a closer look

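Hoxd10 in male L6S1 had 1 library far from the others, since A stood at 90.2 CPM and D, E and F at 53.8 to 59.9 CPM. The A pool lay near the female L6S1 libraries, at 74.1 to 93.5 CPM. It was 1 of 7 groups checked, and chance flags about 1 in 20.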

How the results depend on the processing

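Over both sexes all 20 alternatives called 3 members. The log2 fold change ran from 1.59 to 1.99 for Hoxd9, 2.70 to 3.18 for Hoxd10, 2.79 to 3.34 for Hoxd11, 0.02 to 0.24 for Hoxd8 and -0.77 to -0.13 for Hoxd1. In females the count of called members was 0, against 3 without the filter, 3 by DESeq2, 2 by limma voom, 3 with the replicate block, 2 in females fitted alone and 1 without male L6S1 D and E. The share of all genes called in females without the filter is not reported here, so that count cannot be set beside it. Leaving out 1 library at a time gave 0 to 2 in females. In males the count was 3, against 0 with the replicate block, 0 in males fitted alone and 1 without D and E. Leaving out 1 library at a time gave 0 to 3 in males. The male fits with the block or without D and E keep fewer libraries to compare. Otherwise the cause was not tested. The replicate block changed no other call of a member. The count of called ratios between genes was 9, and 7 to 9 under 15 alternatives. Exon length from the annotation equals the length used for every member, so that alternative could not change the shares. The shares of Hoxd8, Hoxd9, Hoxd10 and Hoxd11 moved by less than 1 SD with shared exon bases left out, an alternative added after the data were seen. With shared bases left out, the share of Hoxd3 was 0.218% at L6S1 and 1.03% at L345, against 0.0861% and 0.402% with the full length, and that of Hoxd4 was 0.333% at L6S1 and 1.20% at L345, against 0.167% and 0.592%. Depth limited Hoxd3, Hoxd4, Hoxd12 and Hoxd13 most, and these were called in 0 of the 14 settings tried. With 1 count each, Hoxd12 and Hoxd13 could not have been called in any of them.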
